A study of Mus musculus with 2 samples.

Results

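Collagen genes were read in 2 cell populations sorted from the mouse otocyst, the epithelial vesicle that gives rise to the inner ear. The members were all genes whose symbol reads Col, a number, a and a number, and which a probe set of the array names alone. There were 42 such genes, covered by 82 probe sets, of 18194 genes and 45101 probe sets on the array. Both populations came from embryos at E10.5 that were heterozygous for the transgene Tg(ETAR-EGFP)14Imeg, so the cells without fluorescence carry it as well. Otocysts were digested with trypsin and the cells sorted by fluorescence into an EGFP-positive and an EGFP-negative population, called positive and negative cells. Per the labels, EGFP lies chiefly in ventral and dorsomedial otocyst, whereas dorsolateral otocyst lacks it. One array was hybridised for each population, and the sources used here do not give the number of embryos.

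Collagens are extracellular proteins built from chains wound into a triple helix. Fibrillar types (I, II, III, V, XI, XXIV and XXVII) assemble into fibrils, with types I, III and V typical of mesenchyme and skin, and types II and XI of cartilage. Type IV forms the sheet-like network of basement membranes, on which epithelia rest, and types XV and XVIII lie in the basement membrane zone. FACIT collagens (types IX, XII, XIV and others) have interrupted helices and attach to the surface of fibrils. The remaining types form beaded filaments (VI), anchoring fibrils (VII), hexagonal nets (VIII, X) or span the cell membrane (XIII, XVII, XXIII, XXV). In the inner ear, types II and IX are known from the developing otic epithelium and its capsule, and later from the tectorial membrane over the hair cells.

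Values are MAS5 signals, linear intensities per probe set on a common scale. Each array had a floor at its 40th percentile, 10.4 for the positive and 12.4 for the negative library, and signals below it were raised to it. The log2 ratio is the positive over the negative library, taken for the probe set of a gene with the highest mean signal. The unequal floors lean ratios near them towards negative cells, since a probe set below both would read -0.25. Since each population has a single array and no replicate, no p-value is given and each statement holds for these 2 libraries alone. The only error these arrays offer is the spread between probe sets of 1 gene, a pooled SD of the log2 ratio of 0.47 over 16 collagen genes read above the floor in each library by several probe sets, and 0.32 over 5640 genes of all kinds. This SD leaves out the spread between embryos, sorts and hybridisations. A ratio is printed as "at least" where the signal of the EGFP-positive library was no higher than 12.3, its brightest control for an absent bacterial transcript.

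The collagen genes parted into groups. Col1a1, Col1a2, Col3a1, Col5a1 and Col5a2, which encode fibrillar collagens of mesenchyme, were all higher in negative cells, from 3.63-fold for Col5a1 to 41.4-fold for Col5a2. The ratio of Col5a2 rests on positive signals near the floor, and its log2 value of -5.37 became -4.16 with a floor at the 60th percentile and -4.33 with 16 added to every signal in place of a floor. The basement membrane genes Col4a1, Col4a2 and Col18a1 and the cartilage-type genes Col2a1, Col9a1, Col9a3 and Col11a1 were well above the floor in both libraries and differed by less than 2-fold. Col6a1 and Col9a2 were the only members 2-fold or more higher in positive cells, at 2.53-fold and 2.51-fold. Of the 42 genes, 33 were above the floor in at least 1 library and 9 were at the floor in both.

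Among the 33 measured genes, 12 (36.4%) were 2-fold or more higher in negative cells, a limit that 7.63% of 13363 genes of all kinds passed in that direction. The 2 genes past 2-fold in positive cells were 6.06% of the members, beside 2.90% of all genes. Of genes of all kinds, 1019 were 2-fold or more higher in negative and 388 in positive cells. This split was 920 and 456 with the highest bacterial control of each array as its floor. It was 822 and 503 after quantile normalization, and 1442 and 225 when the arrays were centred on hybridisation controls. The remaining 19 members were within 2-fold, as were 89.5% of all genes. At 4-fold, 8 members (24.2%) were higher in negative cells, beside 2.53% of all genes, and no member was 4-fold higher in positive cells. The median log2 ratio of the measured members was -0.39, and that of all genes was 0.0032. A member that passed the floor in negative cells alone had to lean that way, and 5 members did so (Col1a1, Col8a2, Col12a1, Col15a1 and Col20a1), against 0 in positive cells alone. Of the 28 members above the floor in both libraries, 8 (28.6%) were 2-fold or more higher in negative cells and 2 (7.14%) in positive cells, beside 5.41% and 2.78% of the 11682 genes of all kinds above the floor in both. By class, 5 of 10 measured fibrillar genes were 2-fold or more higher in negative cells and 0 in positive cells, with a median log2 ratio of -1.23. Of 6 measured basement membrane genes 1 was higher in negative cells and 0 in positive cells (median -0.02), and of 8 measured FACIT genes 1 was higher in each (median -0.10). Of the 9 other measured genes, 5 were higher in negative and 1 in positive cells (median -1.62). Without genes at the floor in 1 array, which could lean only one way, the median was -0.59 for fibrillar, 0.31 for FACIT and -1.30 for other genes. With each floor raised to the 60th percentile, it was -2.11 for fibrillar and -0.94 for other genes. In sorted populations measured in bulk, fewer cells of a type and less RNA per cell cannot be told apart.

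**Figure D1:**
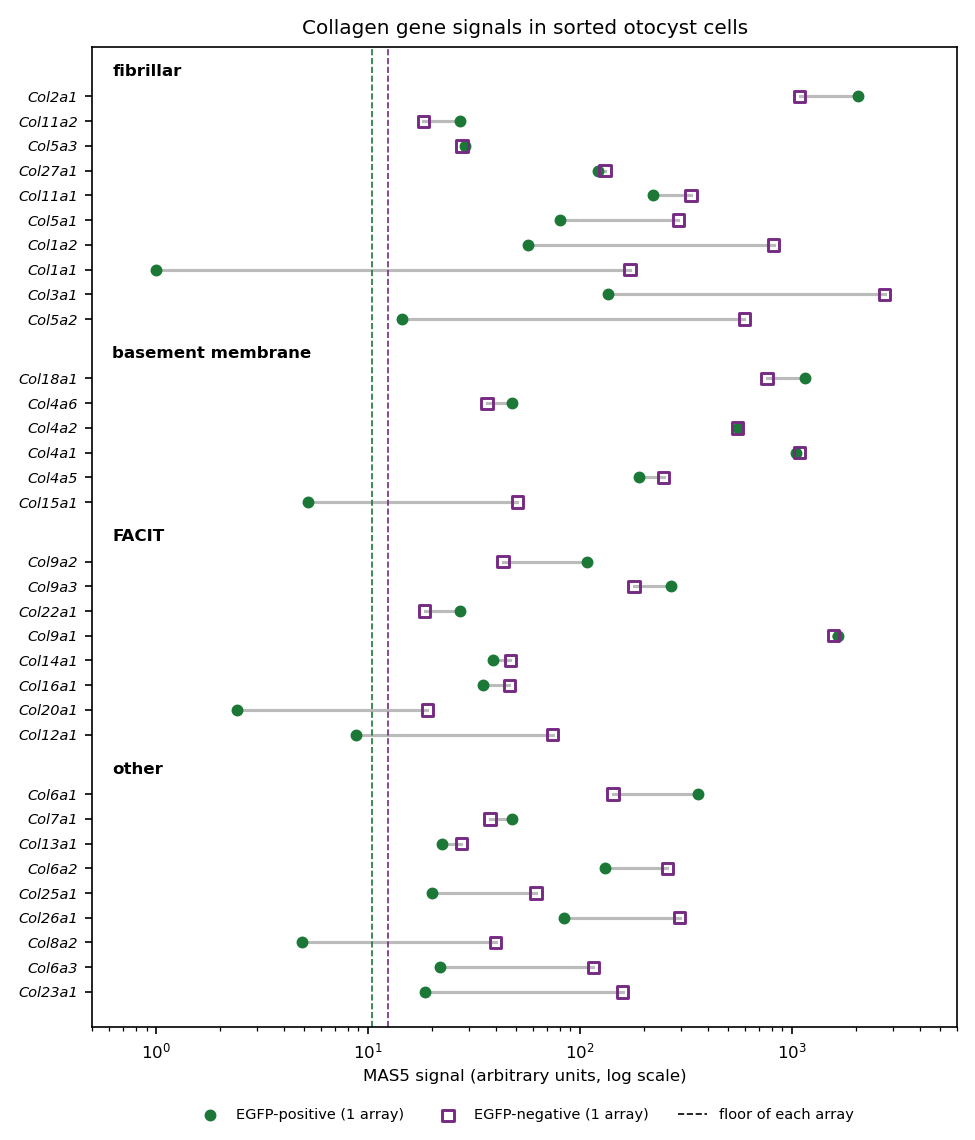
MAS5 signal (log axis) of each of the 33 measured collagen genes in the EGFP-positive array (filled circles) and the EGFP-negative array (open squares), by class, with dashed lines at the floors of 10.4 and 12.4. Long bars join the 2 signals of Col1a1, Col1a2, Col3a1 and Col5a2, while the symbols of Col4a1, Col4a2 and Col9a1 lie nearly on each other.

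Type III collagen, a fibril former of embryonic connective tissue, is a trimer of the Col3a1 product alone. Col3a1 (NCBI Gene 12825) had 135.5 in positive and 2733 in negative cells, and its second probe set had 28.1 and 490.6. Both probe sets were thus well above the floor in both libraries, with log2 ratios of -4.33 and -4.13. The ratio of Col3a1 was at rank 23 from the lowest of 13363 genes. Type I collagen, the main fibril of dermis and bone, combines the products of Col1a1 and Col1a2. Col1a2 (NCBI Gene 12843) had 56.8 in positive and 817.9 in negative cells, 14.4-fold higher in the latter. A second probe set of Col1a2 had 21.2 and 462.8, and the third had 1.0 and 14.0, next to the floor, where the log2 ratio could be no lower than -0.43. Col1a1 (NCBI Gene 12842) had 1.0 in positive and 171.8 in negative cells, at least 14.0-fold higher in negative cells, and 8.6 and 76.0 on its second probe set. Col1a2 was thus measured in both libraries and Col1a1 in negative cells alone.

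Type V collagen, which nucleates type I fibrils and sets their width, is chiefly a trimer of Col5a1 and Col5a2 products. Col5a2 (NCBI Gene 12832) had 14.4 in positive and 595.8 in negative cells, and 16.3 and 374.7 on its other probe set. Its ratio ranked 6 from the lowest of all 13363 genes, though its EGFP-positive signals lay just above the highest bacterial control. Col5a1 (NCBI Gene 12831) differed less, with 80.0 in positive and 290.6 in negative cells, 3.63-fold higher in the latter. Its other probe sets had 53.7 and 214.8, and 10.3 and 42.9, and the log2 ratios of the gene ran from -2.04 to -1.86. The log2 ratio of Col5a1 exceeded that of Col5a2 by 3.51, so these partner chains did not share a ratio. The third chain gene, Col5a3, had 28.7 and 27.7, with a log2 ratio of 0.05 that became -0.20 when the arrays were centred on hybridisation controls.

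The promoters of Col3a1 and Col1a2 are shown because these genes had among the lowest ratios and are read from separate chromosomes. The 150 bases before each RefSeq start (build GRCm38.p6) are given 5′ to 3′ on the strand of the gene. Capitals mark 3 motifs searched on both strands, the TATA box (TATAAA), the CCAAT box (CCAAT) and the GC box (GGGCGG), which do not overlap each other as spelled.
Col3a1 (chr1:45311388-45311537, plus strand): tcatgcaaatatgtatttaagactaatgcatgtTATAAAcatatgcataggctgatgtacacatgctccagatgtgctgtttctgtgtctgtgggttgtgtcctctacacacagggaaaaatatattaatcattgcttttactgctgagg
Col1a2 (chr6:4505468-4505617, plus strand): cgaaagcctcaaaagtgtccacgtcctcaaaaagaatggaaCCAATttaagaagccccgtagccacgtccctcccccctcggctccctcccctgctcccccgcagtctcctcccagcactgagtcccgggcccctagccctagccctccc
The printed windows did not share a motif. Col3a1 held the TATA box letters at bases -117 to -112 and Col1a2 a CCAAT box at -109 to -105, counted from the start. A promoter entry was found for 33 of the 42 collagen genes, with 36 windows in all. In the 250 bases before the start, the GC box letters were in 21 of the 36 collagen windows (58.3%) and in 32.7% of all 32851 windows of that length. The CCAAT letters were in 13 collagen windows (36.1%, beside 33.8% of all) and the TATA letters in 5 (13.9%, beside 12.4%). Among the 8 windows of genes 2-fold or more higher in negative cells, 5 held the GC box, 2 the CCAAT box and 1 the TATA box. Among the 18 windows of genes within 2-fold, the counts were 12, 9 and 2. These are matches of letters and not binding sites.

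The genes of cartilage-type fibrils gave another picture. Type II collagen, the main cartilage fibril, is a trimer of Col2a1 products. Col2a1 (NCBI Gene 12824) had 2036 in positive and 1086.5 in negative cells, 1.87-fold higher in positive cells and so within 2-fold. It was read by 1 probe set. Type XI collagen, which sits inside type II fibrils, combines Col11a1 and Col11a2 products with a Col2a1 chain. Col11a1 had 221.7 in positive and 333.7 in negative cells, and 232.0 and 318.5 on its other probe set, so the sign was the reverse of that of Col2a1. Col11a2 had 27.2 and 18.2, close to the floor. None of these 3 genes passed 2-fold. The remaining fibrillar genes were Col27a1, a collagen of growing cartilage, with 121.3 and 131.3 (36.3 and 67.6 on its other probe set), and Col24a1, at the floor in both.

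Type IX collagen decorates type II fibrils and joins the products of Col9a1, Col9a2 and Col9a3. Col9a1 (NCBI Gene 12839) had 1641.9 in positive and 1565.3 in negative cells, and 294.6 and 320.8 on its second probe set, a log2 ratio of 0.07 whose sign turned on the second probe set and with hybridisation-control centring (-0.18). Col9a3 had 268.5 and 179.5, a log2 ratio of 0.58, and 159.1 and 123.2 on a second probe set, while its last one was at the floor in both. Col9a2 (NCBI Gene 12840) had 108.2 in positive and 43.2 in negative cells, past 2-fold on its single probe set. The log2 ratio of Col9a2 exceeded that of Col9a3 by 0.74, and the ratio of Col9a1 minus that of Col9a2 was -1.26. The pooled SD between collagen probe sets was 0.47, but this is for a single ratio, and a difference of ratios spreads more widely. For scale, all 7 markers of epithelium were 2-fold or more higher in positive cells, with a median log2 ratio of 1.41, beside 1.32 for Col9a2, 0.91 for Col2a1, 0.58 for Col9a3 and 0.07 for Col9a1. The 10 measured otic markers had a median of 0.81, with 5 of them 2-fold or more higher in positive and 1 in negative cells.

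**Figure D2:**
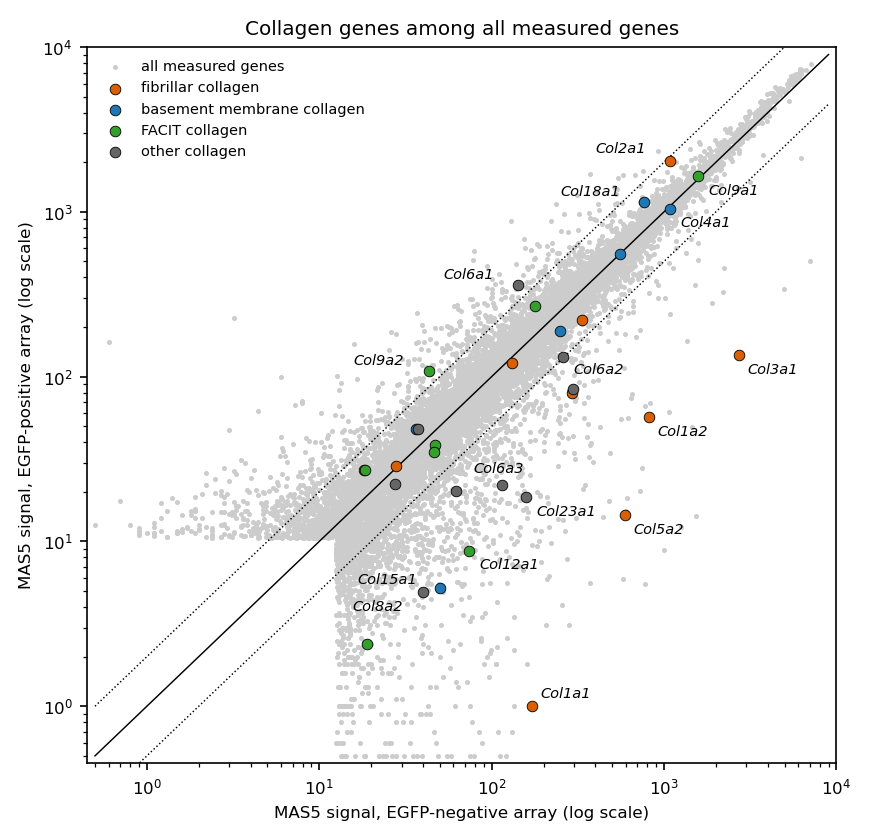
MAS5 signal in the EGFP-positive array against that in the EGFP-negative array (both axes log), for the 13363 measured genes (grey, signals under 0.5 drawn at 0.5) and the 33 collagen genes by class. The solid line marks equal signals and dotted lines a 2-fold difference, and Col1a2, Col3a1 and Col5a2 lie far below the lower line while Col4a1, Col9a1 and Col18a1 lie between the lines.

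Measured basement membrane genes were within 2-fold, apart from that of type XV. Type IV trimers of Col4a1 and Col4a2 products are found in nearly every basement membrane. Col4a1 (NCBI Gene 12826) had 1045.8 in positive and 1081.1 in negative cells, and 213.5 and 256.6 on its second probe set. Col4a2 (NCBI Gene 12827) had 553.8 and 554.1. Their log2 ratios were -0.05 and -0.0008 on the probe sets used. Col4a1 and Col4a2 are read in opposite directions from starts that RefSeq places 21 bases apart, each start lying downstream of the other. Their 300-base promoter windows run past the start and share 78 bases, but the stretches searched before each start do not overlap. Both windows held the CCAAT letters before the start, as separate matches, and that of Col4a2 held the GC box as well.

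The other type IV chains are more restricted in adult tissue. Col4a5 had 188.7 in positive and 247.6 in negative cells, with both probe sets below 0 on the log2 scale (-0.39 and -0.48). Col4a6 had 47.8 and 36.4 on the probe set used and 10.7 and 28.3 on the other, with log2 ratios of 0.39 and -1.40, so that its direction is not settled. Col4a3 and Col4a4, the chains of the mature kidney filter, were at the floor in both libraries on all probe sets. Col18a1 (NCBI Gene 12822), the source of endostatin, had 1150.2 in positive and 762.1 in negative cells, and 608.9 and 406.5 on its other probe set. The 2 log2 ratios were 0.59 and 0.58, close to each other and within 2-fold. Its relative Col15a1, known from the basement membranes of vessels and muscle, had 5.2 and 50.5, at least 4.11-fold higher in negative cells. The endothelium markers were higher in the same library in 9 of 9 cases, and their part in the value of Col15a1 was not tested.

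Among FACIT collagens other than type IX, Col12a1, which binds type I fibrils, had 8.8 in positive and 74.1 in negative cells, at least 6.02-fold higher in negative cells. A second probe set of Col12a1 had 3.6 and 44.4, and the other 2 were at the floor in both libraries. Col14a1, also a partner of type I fibrils, had 38.7 and 46.8, and Col16a1 had 34.9 and 46.4, both within 2-fold and within the spread between probe sets. Col22a1, known from tissue junctions, had 27.2 and 18.5, while its other probe sets had 17.4 and 17.7, and 12.8 and 7.2. Col20a1 had 2.4 and 19.0 on 1 of 4 probe sets and was at the floor on the rest. Col19a1 was at the floor in both. Col12a1 was the only FACIT gene 2-fold or more higher in negative cells, and Col9a2 the only one in positive cells.

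Type VI collagen forms beaded filaments around cells, and its classical trimer takes 1 chain each from Col6a1, Col6a2 and Col6a3. These partner genes went in different directions. Col6a1 (NCBI Gene 12833) had 360.7 in positive and 142.8 in negative cells, the highest ratio of all measured collagens (log2 1.34). Col6a2 (NCBI Gene 12834) had 130.8 and 258.1, 1.97-fold higher in negative cells and so just inside the 2-fold limit, and 73.4 and 131.4 on a second probe set. Col6a3 (NCBI Gene 12835) had 21.9 and 115.4, 5.27-fold higher in negative cells. The log2 ratio of Col6a1 exceeded that of Col6a2 by 2.32 and that of Col6a3 by 3.73. The pooled SD of a single ratio between collagen probe sets was 0.47, and that of a difference is larger. Col6a1 and Col6a3 were each read by 1 probe set, so neither has a second reading on these arrays. The further chains Col6a4 and Col6a5 were at the floor in both libraries.

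The type VI promoters are shown with that of Col9a2 because these genes part or join the members higher in positive cells. Each line gives the 150 bases before the start in build GRCm38.p6, 5′ to 3′ on the strand of the gene, with the same 3 motifs in capitals. For Col6a2, which has 2 starts in RefSeq, the window before the upstream start is given.
Col6a1 (chr10:76726045-76726194, minus strand): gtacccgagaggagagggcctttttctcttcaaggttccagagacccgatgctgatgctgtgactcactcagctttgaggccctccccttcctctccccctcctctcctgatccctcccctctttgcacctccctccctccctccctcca
Col6a2 (chr10:76623631-76623780, minus strand): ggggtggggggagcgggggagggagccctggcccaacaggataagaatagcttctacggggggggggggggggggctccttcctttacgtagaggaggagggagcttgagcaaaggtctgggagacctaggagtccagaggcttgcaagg
Col6a3 (chr1:90843972-90844121, minus strand): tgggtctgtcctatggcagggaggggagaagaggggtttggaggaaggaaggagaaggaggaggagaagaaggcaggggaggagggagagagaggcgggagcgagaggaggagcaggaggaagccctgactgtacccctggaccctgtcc
Col9a2 (chr4:121039416-121039565, plus strand): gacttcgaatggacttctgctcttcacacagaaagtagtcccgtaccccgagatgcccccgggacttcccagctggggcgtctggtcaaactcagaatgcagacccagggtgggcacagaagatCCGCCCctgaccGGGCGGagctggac
None of the 3 motifs occurred in the 150 bases printed for the type VI genes. The 150 bases before the other start of Col6a2, which are not printed, held 3 GC boxes on the opposite strand, at -67 to -62, -15 to -10 and -11 to -6, the last 2 of which overlap. Col9a2 held the GC box letters on its own strand at bases -14 to -9 and on the opposite strand at -26 to -21. Over the 250 bases searched, Col6a2 held the GC box while Col6a1 and Col6a3 held none of the 3 motifs.

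Most of the remaining measured types were higher in negative cells. Col23a1, a membrane-spanning collagen, had 18.5 in positive and 158.9 in negative cells, 8.59-fold higher in the latter. Its other probe sets had 6.3 and 112.5, and 0.7 and 73.7. Both were below the floor in positive cells, so their log2 ratios of -3.44 and -2.83 are bounds. Col26a1 had 84.0 and 295.0, 3.51-fold higher in negative cells, but its other probe set had 10.6 and 16.1, a log2 ratio of -0.60. Col25a1, a membrane collagen of neurons, had 20.1 and 61.9, 3.08-fold higher, and 3.2 and 14.8 on a second probe set near the floor. Col8a2, a chain of the hexagonal net under the corneal endothelium, had 4.9 and 39.9, at least 3.24-fold higher. Col13a1, another membrane-spanning collagen, had 22.2 and 27.5, and Col7a1, the anchoring fibril that fastens epithelium to its bed, had 47.9 and 37.6, both within 2-fold.

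The 9 members at the floor in both libraries were Col24a1, Col4a3, Col4a4, Col19a1, Col6a4, Col6a5, Col8a1, Col10a1 and Col17a1. On the probe set used for each gene, their signals ran from 0.6 to 5.1 in positive and from 2.5 to 10.4 in negative cells. The highest bacterial controls were 12.3 and 9.0. Col10a1 is a marker of hypertrophic cartilage and Col17a1 a hemidesmosome collagen of stratified epithelium. They were not measured under the 40th percentile floor, which does not show that they are absent. Col19a1, at 10.4 in negative cells, lay above the highest bacterial control of that library.

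**Figure D3:**
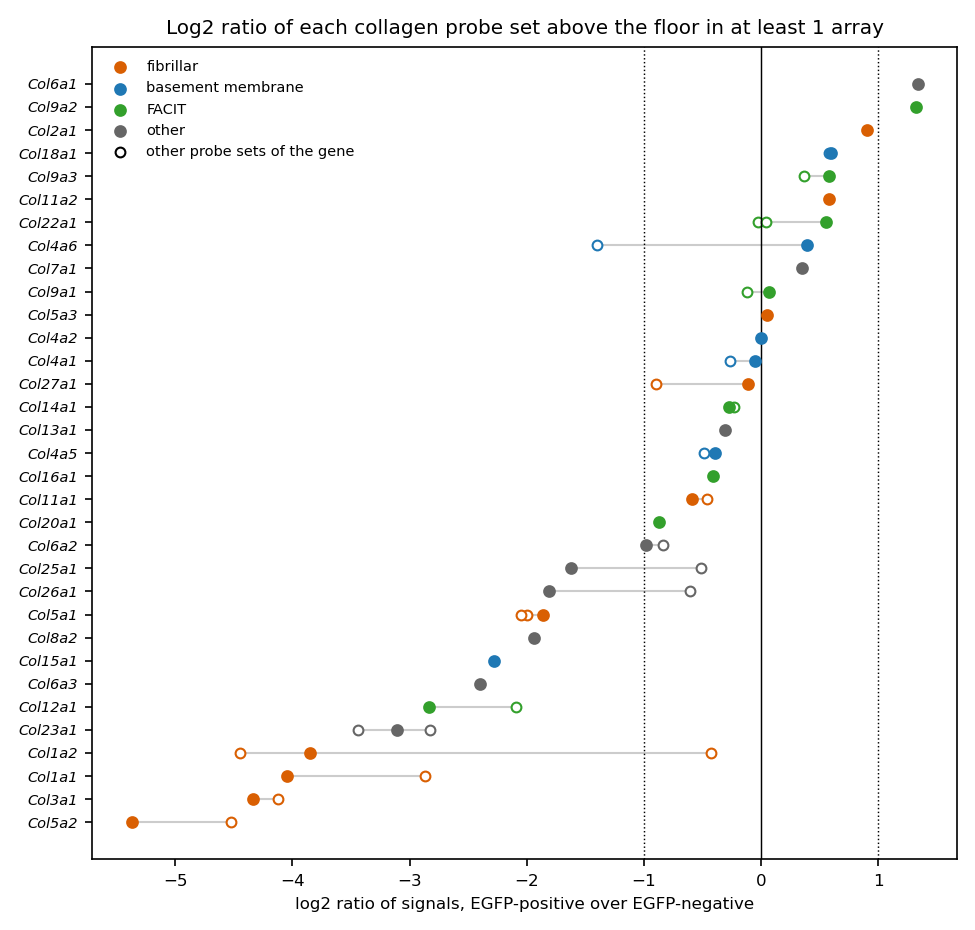
Log2 ratio (EGFP-positive over EGFP-negative) of each collagen probe set above the floor in at least 1 array, by gene, with the probe set used filled and the others open, and dotted lines at 2-fold. The probe sets of Col3a1, Col5a1, Col11a1, Col18a1 and Col23a1 lie close together, whereas those of Col1a1, Col1a2, Col4a6, Col25a1 and Col26a1 lie more than 1 log2 unit apart. Signals below a floor were raised to it, so some points, as those of the open Col23a1 probe sets, are bounds.

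Probe sets of 1 gene mostly went the same way. Of 20 collagen genes for which 2 or more probe sets passed the floor somewhere, 17 had all of these on the same side of 0, and the exceptions were Col4a6, Col9a1 and Col22a1. A probe set above the floor in negative cells alone could only fall below 0, so part of this agreement was fixed by the floor. That held for both counted probe sets of Col1a1 and of Col12a1. It also held for some of those of Col1a2, Col5a1, Col23a1 and Col25a1. Of the 9 genes past 2-fold among these 20, 6 had every probe set past 2-fold the same way (Col1a1, Col3a1, Col5a1, Col5a2, Col12a1 and Col23a1). The other 3 were Col1a2, Col25a1 and Col26a1. The members nearest to the limit were Col6a2 at -0.98, Col2a1 at 0.91 and Col20a1 at -0.87 inside it, and Col9a2 at 1.32, Col6a1 at 1.34 and Col25a1 at -1.62 outside it. With the floor at the 60th percentile Col8a2 (-0.26), Col15a1 (-0.60) and Col25a1 (-0.89) came within 2-fold, and Col6a2 passed it when centred on the median of all genes (-1.01) or on hybridisation controls (-1.23).

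Some collagen genes lie next to each other in the genome (GRCm38.p6). Col3a1 and Col5a2 are neighbours with 0 protein-coding genes between them, and their log2 ratios were -4.33 and -5.37. Col6a1 and Col6a2 are neighbours too but had ratios of 1.34 and -0.98, and Col18a1, with 2 protein-coding genes between it and Col6a1, had 0.59. Col9a1 and Col19a1 are neighbours, Col9a1 well above the floor and Col19a1 at the floor in both. Col4a5 and Col4a6, also neighbours, had -0.39 and 0.39.

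Markers of other cell types were read in the same libraries, and their lists were drawn up beside the collagen classes. Of 15 mesenchyme markers, 13 were 2-fold or more higher in negative cells and 0 in positive cells. Their median log2 ratio was -3.12 and their signals summed to 449.3 in positive and 3884 in negative cells. Pdgfrb, a receptor of mesenchyme and pericytes, had 56.1 and 615.8, and Pdgfra had 34.3 and 487.4. At or below the highest bacterial control in positive cells were Twist1, Twist2, Foxc2, Meox1 and Tbx15, named after their values were seen, so mesenchyme markers were not uniformly at background there. The log2 ratios of Col1a1, Col1a2, Col3a1, Col5a1 and Col5a2 ran from -5.37 to -1.86 and those of the mesenchyme markers from -4.78 to 0.45. The part of mesenchyme in these collagen values was not tested. All 9 endothelium markers were past 2-fold in the same direction, with sums of 70.6 and 627.1, and 6 of them were at background in positive cells. So were all 6 macrophage markers (52.4 and 933.8, 5 at background in positive cells), all 6 neural tube markers (35.6 and 2485, with 4) and all 6 measured erythroid markers (2984 and 20400, with 3). The brightest of these lists were Cldn5 (2.2 and 135.7) and Emcn (8.7 and 121.8) for endothelium, and Csf1r (18.3 and 607.1) and Tyrobp (10.9 and 111.2) for macrophages. Those of the neural tube were Zic1 (14.2 and 1523.2) and Fabp7 (15.2 and 602.0), and those of erythroid cells were the embryonic globin genes Hbb-y (2121.4 and 6191.1) and Hbb-bh1 (500.5 and 7046.6). Of 4 measured smooth muscle and pericyte markers, 1 passed 2-fold in positive and 2 in negative cells, with Acta2 at 32.5 and 101.5 and Rgs5 at 49.2 and 19.4.

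Otic and epithelium markers were present in both libraries. All 10 measured otic markers lay above the floor in both, 5 of them 2-fold or more higher in positive cells and 1 in negative cells, with sums of 5228 and 3548. The 2 with the highest mean signals were Oc90 (939.8 and 1405.7) and Eya1 (1665 and 578.3). Epithelium markers summed to 8004 in positive and 2906 in negative cells, led by Epcam (1610 and 538.6) and Krt8 (1366 and 532.7). Of 5 measured cartilage and notochord markers, 2 passed 2-fold in positive and 1 in negative cells. The 6 with a probe set summed to 1217 and 409.5. Cnmd, which encodes chondromodulin, had 878.3 and 129.1 and so gave most of the positive sum. Sox5, a partner of Sox9 on cartilage genes, had 170.3 and 88.3. The marker higher in negative cells was Hapln1, named after its values were seen, with 15.1 and 80.8. Acan, the aggrecan gene of cartilage matrix and named here after its values were seen, was at the floor in both with 9.3 and 9.8, while Col2a1 was at 2036 and 1086.5.

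**Figure D4:**
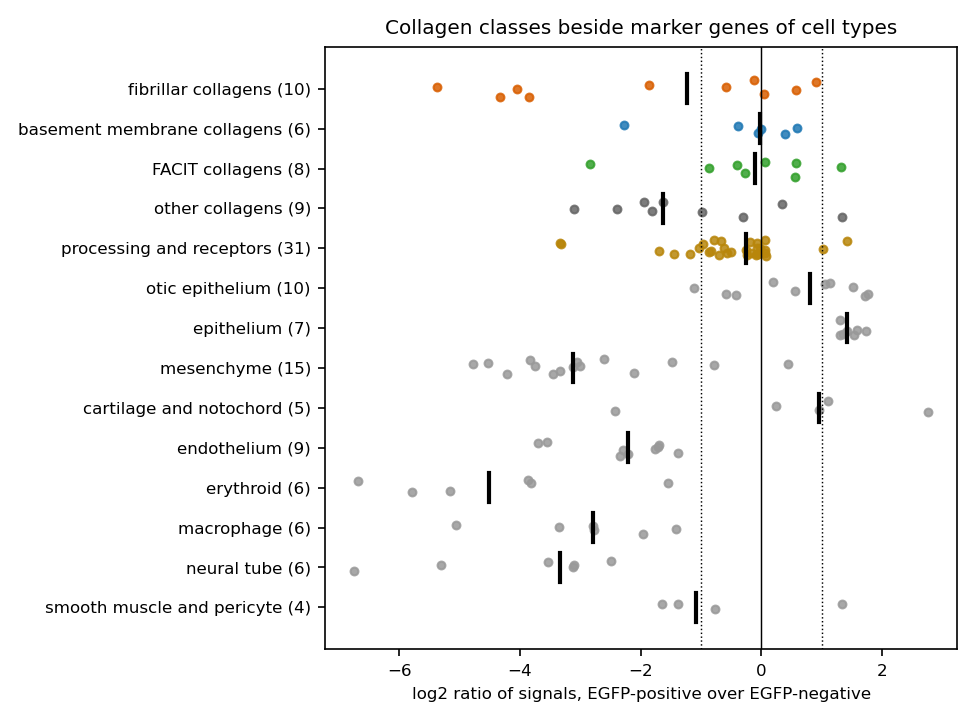
Log2 ratio (EGFP-positive over EGFP-negative) of each measured gene in the 4 collagen classes, the processing and receptor list and 9 marker lists, with the number of genes in brackets, black bars at the median and dotted lines at 2-fold. The medians are -1.23 for fibrillar, -0.02 for basement membrane, -0.10 for FACIT and -1.62 for other collagens, between -3.12 for mesenchyme and 1.41 for epithelium.

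Genes that process, cross-link and bind collagen made a list of 42. Of these, 5 had no probe set naming them alone and 31 were above the floor in at least 1 library. Of these 31, 6 (19.4%) were 2-fold or more higher in negative cells and 2 (6.45%) in positive cells, beside 7.63% and 2.90% of all genes. The other 23 (74.2%) were within 2-fold, beside 89.5% of all genes. The median log2 ratio was -0.26. P4hb, the shared subunit of prolyl 4-hydroxylase, had 2171 in positive and 2068 in negative cells. The folding and export genes were all within 2-fold, with log2 ratios from -0.865 to 0.06 and a median of -0.18. Of the 6 measured, 5 were below 0, as were 6626 of the 13363 genes of all kinds. The prolyl isomerase gene Ppib was the exception, with 2768 and 2655. Serpinh1, the collagen chaperone HSP47, had 1365 in positive and 2089 in negative cells, 1.53-fold higher in the latter. Sec24d, which encodes a coat protein of vesicles that carry procollagen and was named after its values were seen, had 83.4 and 151.9, 1.82-fold higher in negative cells. Colgalt1, which glycosylates hydroxylysine, had 324.2 and 339.6.

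Within the hydroxylases, Plod2, the lysyl hydroxylase of collagen telopeptides, had 608.8 in positive and 299.7 in negative cells, 2.03-fold higher in the former, but its other probe set was at 0.65 on the log2 scale. The prolyl 3-hydroxylase genes P3h2 and P3h3 went the other way, with 14.3 and 46.1 (3.22-fold) and 19.3 and 52.7 (2.73-fold). The procollagen C-proteinase enhancers, which speed the trimming of fibrillar procollagens, parted too. Pcolce had 55.7 in positive and 562.4 in negative cells, 10.1-fold higher in the latter, and its second probe set was at -2.49 on the log2 scale. Pcolce2 had 87.6 and 32.8, 2.67-fold higher in positive cells. Adamts3, which trims the other end of procollagen II, had 12.1 and 27.4, at least 2.23-fold higher in negative cells. Colgalt2 had 10.3 and 21.2, which is at least 1.72-fold against the brightest bacterial control and so past 2-fold only with the lower floor.

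The discoidin domain receptors are kinases that collagen binds directly. Ddr1, the form typical of epithelium, had 1199.9 in positive and 1214.6 in negative cells, although its 8 probe sets ran from -1.01 to 0.13 on the log2 scale. Ddr2, the form typical of mesenchyme, had 15.9 and 157.9, 9.93-fold higher in negative cells, and -1.89 on its second probe set. Itgb1, the beta subunit of the collagen-binding integrins, had 313.4 and 446.3, within 2-fold. Lox, which starts collagen cross-linking, was at the floor in both libraries, named here after its values were seen.

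**Figure D5:**
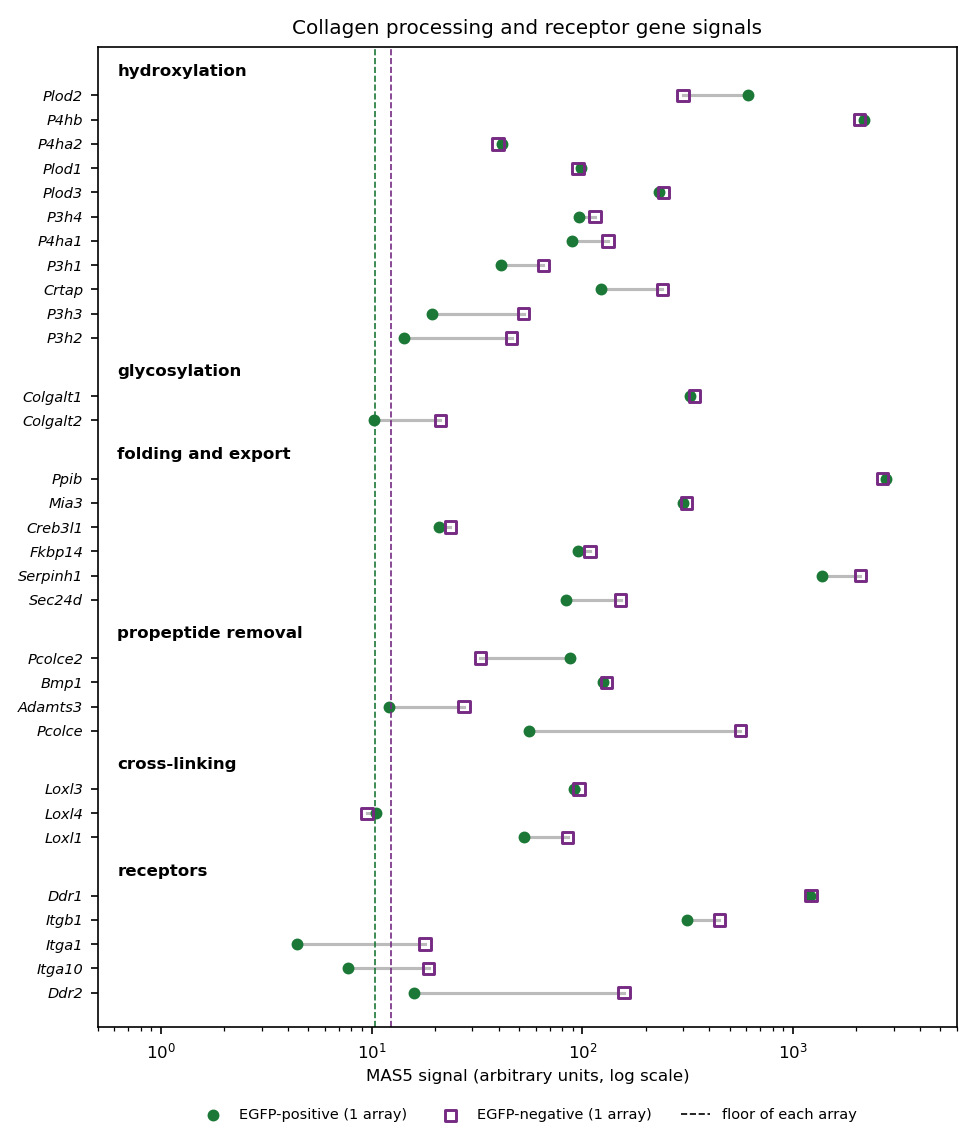
MAS5 signal (log axis) of the 31 measured collagen processing and receptor genes in the EGFP-positive array (filled circles) and the EGFP-negative array (open squares), by role, with dashed lines at the floors of 10.4 and 12.4. Pcolce and Ddr2 show the widest gaps among genes above the floor in both, at 10.1-fold and 9.93-fold, while P4hb, Ppib and Ddr1 nearly coincide.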

How the data were processed

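Biotin-labelled cRNA of each population was hybridised to 1 Affymetrix array, per the labels' protocols. The authors deposited intensities on a linear scale, each the MAS5 signal of a probe set, and the submitters' processing notes name MAS5 version 5.0. The sources used here do not give the scaling target, and in both columns the mean without the lowest and highest 2% of values was 100.0. MAS5 subtracts mismatch probes, so low signals are noisy.

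Probe sets were named from the platform annotation: 34958 named 1 gene, 932 several (not used) and 9211 none here. All 42 collagen genes matched the RefSeq gene table (GRCm38.p6) by gene ID, and promoter sequences are RefSeq's. Floors, ratios and counts were computed with Python 3.11.15, numpy 2.4.6 and pandas 2.3.3, and the procedure was tested on simulated data. The simulated log2 noise was the same at all signal levels, so that test does not bear on calls near the floor. No test across arrays was possible, so none was fitted. The number of arrays limits the precision.

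Named were all members, processing genes past 2-fold with the 6 of highest mean signal within 2-fold, and the 2 of highest mean signal in each marker list. The members and lists were chosen with earlier results of these data known. Marker lists covered 9 cell or tissue types. The closing section gives 9 alternatives.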

Additional observations from a re-analysis of the deposited data

How the results depend on the processing

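Of the 14 collagen genes past 2-fold, 10 stayed past it in every one of the 9 alternatives that gave a value. With the floor at the 60th percentile, Col15a1 (-0.60), Col25a1 (-0.89) and Col8a2 (-0.26) came within 2-fold, and without probe sets whose names mark shared or multiple transcripts Col26a1 (-0.60) did. Col6a2 passed 2-fold after centring on the median of all genes (-1.01) or on hybridisation controls (-1.23), and Col20a1 (-1.12) after the latter. No called gene turned its sign. Col4a6 (-0.51) and Col9a1 (-0.03) had the opposite sign with the median over probe sets, as did Col9a1 (-0.18) and Col5a3 (-0.20) after centring on hybridisation controls. Across the alternatives 8 to 14 collagen genes passed 2-fold in negative and 2 in positive cells, and the median log2 ratio ran from -0.64 to -0.19. The lowest count, 8 of 28 (28.6%), was without genes at the floor in 1 array, beside 5.41% of all genes. In positive cells the shares there were 7.14% and 2.78%. The number of measured genes changes with the setting, and shares for the other alternatives were not computed. The FACIT median ran from -0.35 to 0.31 and its sign is not settled, whereas the fibrillar (-2.11 to -0.59) and other (-1.87 to -0.94) medians stayed below 0. Under the 60th percentile floor, Col1a1 was at -2.37, Col12a1 at -1.15, Col23a1 at -2.25, Col6a3 at -1.79 and Col5a2 at -4.16.

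The background depended more on the setting. With the floor at the 60th percentile, 478 genes were 2-fold or more higher in negative and 237 in positive cells. With 16 added to every signal, the counts were 647 and 238. Without genes at the floor in 1 array, 632 of 11682 (5.41%) were 2-fold or more higher in negative cells. Quantile normalization gave 822 and 503. Centring on hybridisation controls moved the scale by 0.25 (log2) towards negative cells and gave 1442 and 225. Of the processing and receptor genes, 2 were 2-fold or more higher in negative cells with the 60th percentile floor. With 16 added there were 3, and with hybridisation controls 10. In positive cells 1 was 2-fold or more higher with 16 added, the median over probe sets and either centring. The causes were not tested. No paired analysis was possible because each population has 1 array. The bioB controls were at background in both arrays and were left out of the centring.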
